A study of Mus musculus with 8 samples.

Results

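The transcripts examined here are 10 genes widely used to recognise mesenchymal stromal cells in the mouse: Ly6a, Thy1, Nt5e, Eng, Pdgfra, Pdgfrb, Cd44, Alcam, Mcam and Nes. They were taken by gene symbol from the 47643 named entries of the expression table, and all 10 passed the filter on low counts that left 15327 genes to test. In wild type cells, 6 of the 10 carried an N6-methyladenosine (m6A) peak, as did 37.1% of all genes tested. In cells of conditional Mettl3 knockout mice, 4 of the 10 were higher and 4 were lower than in wild type, with Thy1 rising 24.1-fold and Nt5e falling 5.09-fold. Over all genes tested, 13.7% were higher and 16.8% lower, 30.5% in all.

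The study asked how m6A, the commonest internal modification of mRNA, acts in bone marrow mesenchymal stem cells (MSCs), and removed Mettl3, the catalytic subunit of the methyltransferase that writes it. RNA-seq compared 2 wild type libraries with 2 Prx1-cre;Mettl3fl/fl (cKO) libraries, and MeRIP-Seq compared 2 m6A immunoprecipitates with 2 inputs of wild type cells. All were C57BL/6 cells held for 2 days with 100 nM dexamethasone, 5 mM β-glycerophosphate and 50 µg/ml ascorbic acid, which together form an osteogenic medium. The methods describe the controls of the RNA-seq as littermates, and the study uses WT for Mettl3fl/fl mice, so the controls may carry the floxed alleles too. Cells were flushed from tibiae and femurs and grown on plastic, with no sort stated, so other marrow cells that stick to plastic can be present. The Prx1-cre transgene is active in the mesenchyme of the limb bud and its descendants, and it excises exons 2 and 3 of Mettl3. The age and number of mice behind a library are not given in the sources used here, and nothing says that the 2 libraries of a genotype came from separate animals. The p-values below therefore measure the spread between these libraries, which may be technical.

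No single surface protein defines a stromal cell, and panels of them are used instead. Thy1 (CD90), Nt5e (CD73) and Eng (CD105) form the classical panel for human MSCs, while Ly6a (Sca-1) and Pdgfra are used together to isolate stromal progenitors from mouse marrow. Pdgfrb, Mcam and Nes are used to find perivascular stroma, and Cd44 and Alcam mark cultured stromal cells among many other cell types. Nes encodes nestin, an intermediate filament protein inside the cell, and it is a stromal marker without being a surface protein.

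Mettl3, the targeted gene, was not called different between the genotypes. It stood at 17.6 and 16.9 counts per 1000000 (CPM) in the wild type libraries and at 17.5 and 16.3 CPM in the cKO libraries, and the groups overlapped (log2 fold change −0.03, SE 0.0929, 95% confidence interval −0.26 to 0.19, edgeR adjusted p = 0.824). A count over the whole gene can miss the loss of 2 exons, so these counts neither show nor deny the deletion. The paper itself reports the deletion by immunostaining and western blot, with a reduced m6A level in the MSCs. The libraries held 23948200 to 34069223 counts. Compared by chi-square over genes, the 2 cKO libraries were close to sampling noise (1.82 per degree of freedom) and the 2 wild type libraries were not (32.6), so most of the measured spread came from the controls.

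The m6A peaks of the marker transcripts are taken first, since they describe the wild type state. MeRIP-Seq recovers RNA fragments bound by an antibody to m6A, and a peak is a stretch where these exceed the background. The authors deposited 1 list of 10160 peaks for all 4 samples, so a peak has no replicate error and its depth of sequencing is unknown. Of these, 10 peaks had their summits in 6 markers, namely 4 in Nes, 2 in Pdgfrb and 1 each in Eng, Pdgfra, Cd44 and Alcam. Ly6a, Thy1, Nt5e and Mcam had none. Among all genes tested 37.1% had a peak. The share was 45.3% among the 11777 genes with at least the wild type mean CPM of Thy1, the lowest marker in CPM. It was 48.3% among the 10005 genes with at least the wild type mean CPM of Nes. Ly6a had no peak although it was the most abundant of the 10 in these cells, while Nes, which had 4, had the lowest wild type mean on a per-length scale. Their transcripts differ in length, at 819 nt for Ly6a and 6126 nt for Nes. A missing peak does not show that a transcript is unmethylated.

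The peaks differed in where they lay on the transcript. The Pdgfra peak, at chr5:75591084-75591449 of mm9, had its summit in the 3′UTR, 148 nt after the stop codon in exon 23 of 23. The Eng peak, at chr2:32537114-32537511, also lay in the 3′UTR, 263 nt after the stop codon in exon 15 of 15. The Cd44 peak, at chr2:102654287-102654594, lay in the last exon too, 106 nt before the stop codon. Both Pdgfrb peaks lay in the 3′UTR on exon 24 of 24. One spanned chr18:61242826-61243477 with its summit 11 nt after the stop codon, and the other spanned chr18:61244089-61244517 with its summit 1230 nt after it. These 5 peaks were all in the last exon, and all but the distal one of Pdgfrb had the summit within 263 nt of the stop codon, a region known for m6A.

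Nes and Alcam were different. All 4 Nes peaks lay inside the coding sequence of its last exon, exon 4 of 4. Their summits were 4036, 3481, 2490 and 2031 nt before the stop codon. Of the genes tested, 288 (1.88%) had 4 or more peaks. The share was 2.73% among genes with at least the wild type mean CPM of Nes. The Alcam peak, at chr16:52452978-52453270, lay in the 5′UTR on exon 1 of 16, with its summit 411 nt before the start codon, a location held by 5.57% of the peaks in genes. It was also the weakest of the 10, with a −log10 q of 2.64, and 0.994% of the peaks in the list had a lower one.

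**Figure D1:**
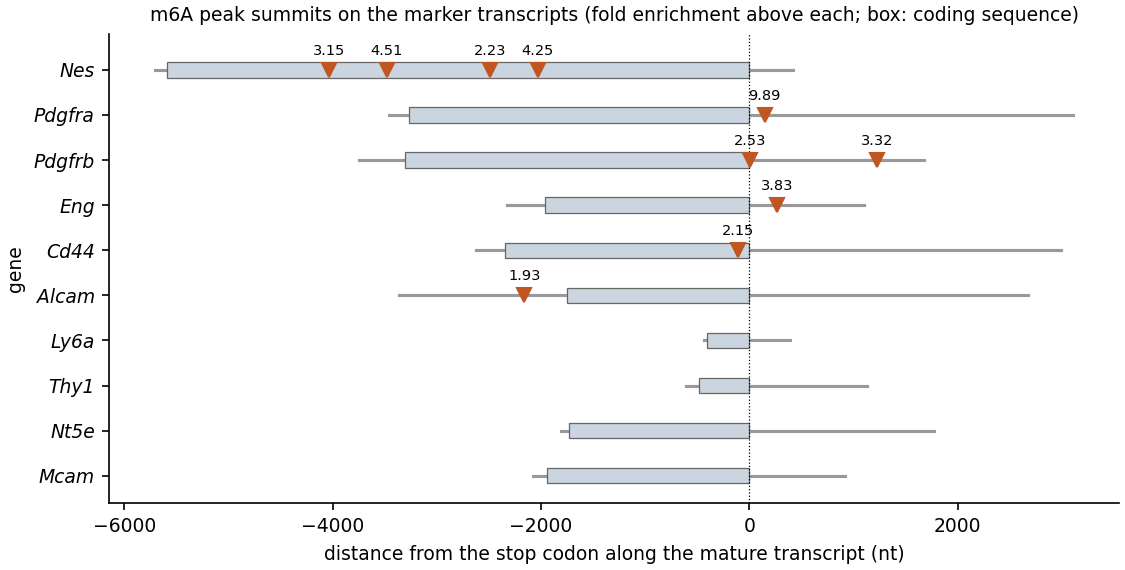
m6A peak summits of the 10 markers (triangles, with the fold enrichment above each) on their transcripts, by distance from the stop codon in nt. Boxes are coding sequence and lines are UTRs. The 4 summits of Nes sit 4036 to 2031 nt before the stop codon, those of Pdgfra, Eng, Pdgfrb and Cd44 sit near or after it, and 4 transcripts have none.

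The height of a peak also varied. Pdgfra had the highest fold enrichment over the local background of the 10 peaks at 9.89, which ranked 264 among 10160 peaks, whose median was 4.03. Eng reached 3.83, the Nes peaks 2.23 to 4.51, the Pdgfrb peaks 2.53 and 3.32, Cd44 2.15 and Alcam 1.93. By pileup, the number of fragments over the summit, the order was another one, led by the distal Pdgfrb peak at 189 and the Cd44 peak at 156 against a median of 60 over the list. Pdgfra had a pileup of 47. An abundant transcript gives more fragments, so pileup and fold enrichment measure different things. With peaks kept only at a −log10 q of at least 5, 8 of the 10 remained, on 5 genes, with Alcam and 1 of the Nes peaks lost.

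Sequence near the summit is shown for 8 of the 10 peaks because m6A is known to be placed within a short motif whose commonest form is GGAC. Each window holds 30 nt of the transcript strand, from mm9, around the GGAC of the peak that lies nearest to the summit, so a window need not hold the summit itself. The capitals mark that GGAC. The windows of Nes are those of its peaks in transcript order.
Pdgfra, chr5:75591202-75591231, plus strand: aaagttgagaagaGGACttgggtgatgtgg
Eng, chr2:32537460-32537489, plus strand: agcctcctcacctGGACtggcacaacttcg
Cd44, chr2:102654340-102654369, minus strand: catcagagaccccGGACcagtgtatgacag
Nes, peak 1, chr3:87779907-87779936, plus strand: aagaaagtggtctGGACacagaagaaatcc
Nes, peak 2, chr3:87780483-87780512, plus strand: ttgaagaagcagaGGACcaggtgcttgaga
Nes, peak 3, chr3:87781447-87781476, plus strand: gaggtctctagcaGGACaggaccaagagga
Nes, peak 4, chr3:87781923-87781952, plus strand: caggaggggtggaGGACagtcagcagtgcc
Alcam, chr16:52453006-52453035, minus strand: agacccaccgtcgGGACcccgcggcgctgc

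In these windows the motif lay 2 to 29 nt from the summit for the Nes peaks, 31 nt for Alcam, 44 nt for Cd44, 54 nt for Pdgfra and 133 nt for Eng. All 10 peaks held at least 1 GGAC on the transcript strand, and so did 86.9% of the 9397 peaks in genes. The markers without a peak held the motif as well. Ly6a had 3 in a transcript of 819 nt, Thy1 6 in 1735 nt, Mcam 13 in 2989 nt and Nt5e 16 in 3580 nt, or 3.46 to 4.47 per kb against a median of 4.04 over 22749 coding genes. Pdgfrb had 8.11 per kb, more than 95.3% of these genes, and Nes 6.04 per kb. A match of these letters is a description and does not show that the site is methylated.

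The levels of the 10 transcripts in wild type cells spanned a wide range. On the per-length scale of the authors, called TPM here because each library sums to 1000000, Ly6a led in each library, with 461 and 493 TPM. Alcam followed at 60.7 and 64.3 TPM, then Cd44 at 37.5 and 29.8, Pdgfra at 31.6 and 27.6, and Pdgfrb at 28.4 and 28.2 TPM. Cd44, Pdgfra and Pdgfrb are neighbours in this order that did not separate beyond their spread on this scale. Eng (18.2 and 17.5 TPM) and Mcam (10.4 and 11.6) were lower. Nt5e (4.32 and 4.25 TPM), Thy1 (3.50 and 1.65) and Nes (1.70 and 1.81) were the lowest, and Thy1 and Nes overlapped. In the cKO libraries Ly6a still led, at 426 and 406 TPM. Alcam was next at 73.3 and 74.9 TPM, above Thy1 at 69.98 and 65.2 TPM. Nt5e came last at 1.05 and 0.79 TPM. When CPM was divided instead by the exon length of an independent annotation, Thy1 ranked 2 in the cKO libraries, ahead of Pdgfrb, and Alcam ranked 4.

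**Figure D2:**
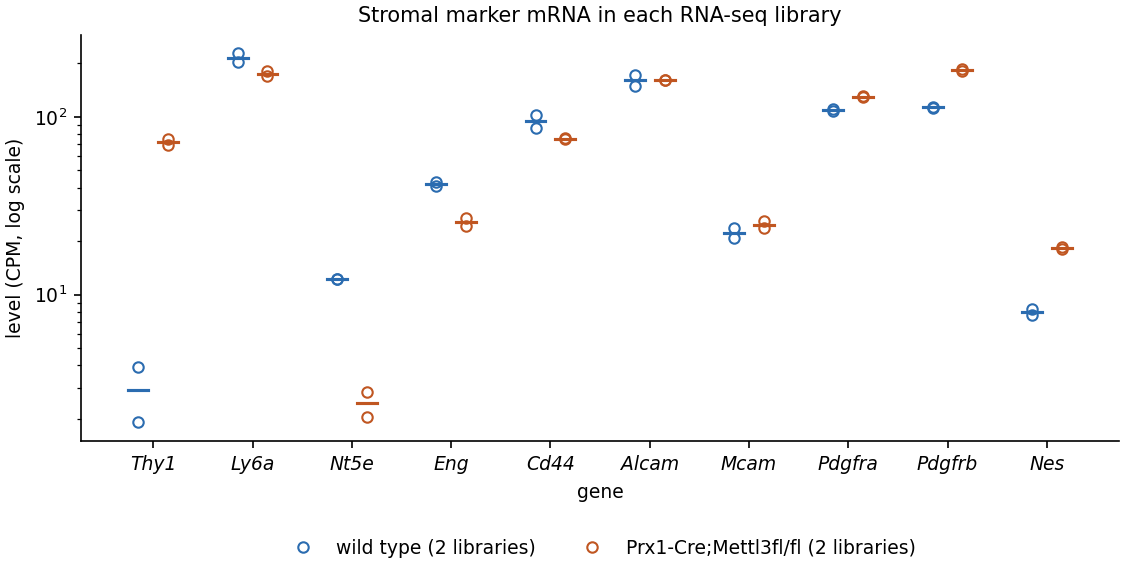
Level of each marker in CPM on a log axis, with 1 circle per library (2 wild type in blue, 2 cKO in orange) and a bar for the mean. The circles of the genotypes do not overlap for 8 of the 10 genes, and Thy1 and Nt5e lie farthest apart, in opposite directions.

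Across the 10 markers, 4 rose (Thy1, Nes, Pdgfrb and Pdgfra), 4 fell (Nt5e, Eng, Cd44 and Ly6a) and 2 did not pass the test (Alcam and Mcam), at an adjusted p under 0.05 by edgeR. Over all genes tested 30.5% passed, 13.7% higher and 16.8% lower in the cKO libraries. A change of at least 2-fold was seen in 3 markers, against 9.20% of all genes. The wild type and cKO libraries did not overlap for 8 markers, as for 68.9% of all genes. The median log2 fold change of the markers was 0.09, and of all genes −0.0038, while the median size of the change, regardless of direction, was 0.51 for the markers and 0.25 for all genes. In a comparison of 2 libraries with 2, a two-sided exact permutation test of 1 gene cannot go below p = 0.333, so the tests rest on the spread that edgeR shares across genes. In bulk RNA, fewer cells of a type and less RNA per cell cannot be told apart.

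**Figure D3:**
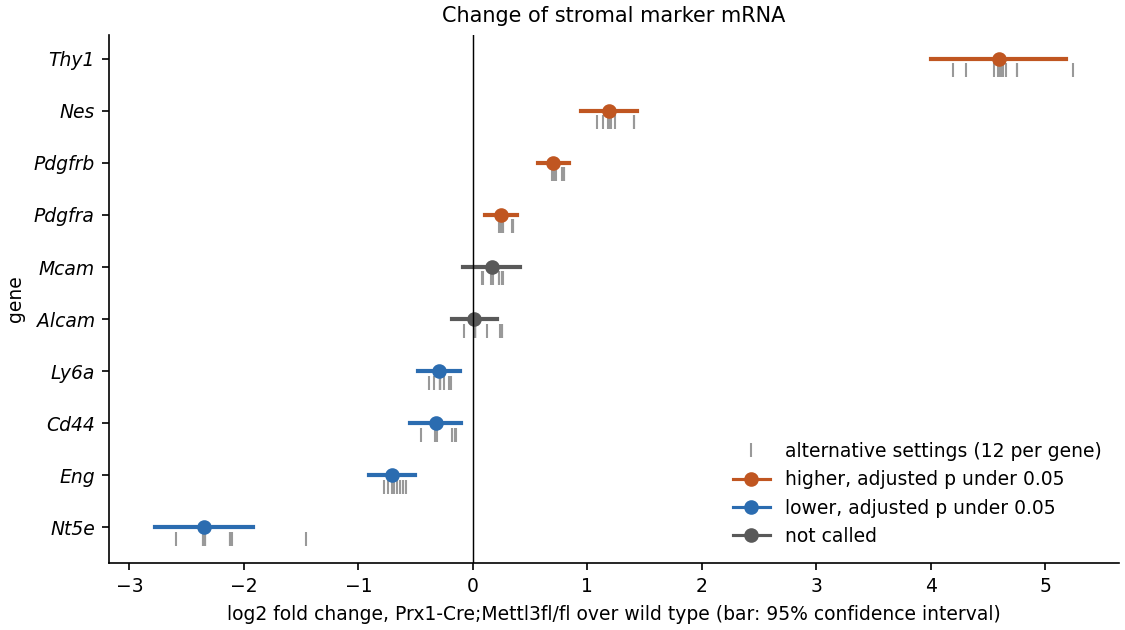
Log2 fold change of each marker in cKO over wild type (circle), its 95% confidence interval (bar) and its value under 12 alternative settings (grey ticks). Thy1 is at 4.59 and Nt5e at −2.35, and the intervals of Mcam and Alcam include 0.

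Thy1 (ENSMUSG00000032011; chromosome 9, 44043384 to 44048579 of GRCm38, plus strand) encodes a small glycoprotein held to the membrane by a glycosylphosphatidylinositol (GPI) anchor, found on fibroblasts, neurons and T cells. It had 133 and 54 counts in the wild type libraries and 1809 and 2212 counts in the cKO libraries, or 3.93 and 1.91 against 74.7 and 69.4 CPM. Both cKO libraries were far above both wild type libraries, and the wild type libraries differed 2.06-fold from each other. The mean rose from 2.92 ± 1.43 to 72.0 ± 3.72 CPM (SD, n = 2 per group; log2 fold change 4.59, SE 0.244, 95% confidence interval 4.003 to 5.18, edgeR adjusted p = 7.34e-05), the rank 23 rise among 15327 genes. It was 5.24 without wild type replicate 1, the higher of the controls, and 4.19 without replicate 2. T cells also make Thy1, and their part in its rise was not tested. Cd3e, Cd3d and Cd3g were at 0 counts in all 4, where a count of 0 allows up to 0.124 CPM in the shallowest, and the 6 T cell markers summed to 0.177 to 0.858 CPM in wild type and 0.471 to 0.537 CPM in cKO.

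Nt5e (ENSMUSG00000032420; chromosome 9, 88327197 to 88372092, plus strand) encodes a GPI-anchored enzyme that turns extracellular AMP into adenosine. It had 415 and 348 counts in wild type and 69 and 65 in cKO, or 12.3 and 12.3 against 2.85 and 2.04 CPM. The wild type libraries were alike and both stood above the cKO libraries, so that the gene was 5.09-fold lower in cKO (log2 fold change −2.35, SE 0.177, 95% confidence interval −2.77 to −1.92, edgeR adjusted p = 0.000295). Thy1 and Nt5e thus moved in opposite directions, and the ratio of their TPM, 0.810 and 0.388 in wild type, was 66.6 and 82.6 in cKO. Of the 10 genes of adenosine production, transport and sensing, 2 fell and 8 did not pass (median log2 fold change −0.36), beside 30.5% called over all genes tested. Those that fell were the nucleoside transporter Slc29a1 (125 and 105 CPM in wild type, 89.6 and 86.4 in cKO; log2 fold change −0.39, adjusted p = 0.0218, lost in 6 of 12 alternative settings) and the adenosine kinase Adk (log2 fold change −0.67, adjusted p = 0.0036). Entpd1, the enzyme that supplies AMP to Nt5e, stood at 90.5 and 32.3 CPM in wild type and 102 and 102 CPM in cKO, and the difference did not pass (log2 fold change 0.73, adjusted p = 0.224). Its wild type libraries lay far apart, and it did pass with the replicate number as a block (0.89) and without the filter on low counts (0.73). It was at 1.67 without wild type replicate 1 and at 0.17 without wild type replicate 2, where only the cKO libraries give a spread.

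Ly6a (ENSMUSG00000075602; chromosome 15, 74994877 to 74998031, minus strand) encodes the GPI-anchored Sca-1, a marker of mouse stem and progenitor cells. It stood at 202 and 228 CPM in wild type and 181 and 169.9 CPM in cKO. Both cKO libraries were below both wild type libraries by a small margin (log2 fold change −0.30, SE 0.0777, 95% confidence interval −0.48 to −0.11, edgeR adjusted p = 0.0315). The call was lost in 6 of 12 alternative settings, among them the fits without cKO replicate 1 (−0.34) and without cKO replicate 2 (−0.25). Of its relatives in the Ly6 cluster, 2 could be tested, and they went separate ways. Ly6c1 fell (64.7 and 78.6 against 48.1 and 48.3 CPM, log2 fold change −0.57, adjusted p = 0.00784, not past the threshold in 3 fits of log2 TPM by limma) and Ly6e rose (362 and 397 against 449 and 451 CPM, log2 fold change 0.24, adjusted p = 0.0354, lost without either cKO library). The other 7 Ly6 genes on the list were too low to test, and because genes of this family are near copies, reads may be split between them. The 6 genes that build, remodel or cut the GPI anchor shared by Thy1, Nt5e and Ly6a had a median of 0.03, with 1 higher (Pgap1, log2 fold change 0.42, adjusted p = 0.00626), 1 lower (Gpaa1, log2 fold change −0.32, adjusted p = 0.0244) and 4 not past the test. That is near the 30.5% called over all genes tested.

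Eng (ENSMUSG00000026814; chromosome 2, 32646595 to 32682669, plus strand) encodes endoglin, a co-receptor for ligands of the TGF-β family. It stood at 42.9 and 41.0 CPM in wild type and at 24.4 and 26.9 CPM in cKO, without overlap, a 1.63-fold fall (log2 fold change −0.71, SE 0.0831, 95% confidence interval −0.91 to −0.51, edgeR adjusted p = 0.00175). Eng overlaps Fpgs on the opposite strand, which had 289 to 406 counts per library against 591 to 1449 for Eng, and whether the authors counted by strand is not stated. Among its partners, 2 rose, 4 fell and 2 did not pass, beside 13.7% higher and 16.8% lower over all genes tested. The signalling receptors Tgfbr1 (182 and 146 against 317 and 318 CPM; log2 fold change 0.96, adjusted p = 0.00135) and Tgfbr2 (296 and 279 against 482 and 489.8 CPM; log2 fold change 0.76, adjusted p = 0.000368) rose. The co-receptor Tgfbr3, the BMP receptor Bmpr2 and the ligands Tgfb2 and Tgfb3 fell, with log2 fold changes of −0.55, −0.54, −0.47 and −0.43. Acvrl1, the receptor that endoglin assists in endothelium, did not pass (log2 fold change 0.05), and its ligands Gdf2 and Bmp10 were too low to test.

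The receptors for platelet-derived growth factor both rose, Pdgfrb more than Pdgfra. Pdgfrb (ENSMUSG00000024620; chromosome 18, 61045150 to 61085061, plus strand), the receptor of pericytes and fibroblasts, stood at 113 and 114 CPM in wild type and 182 and 187 CPM in cKO. The libraries of each genotype were close together and the genotypes 1.63-fold apart (log2 fold change 0.70, SE 0.0573, 95% confidence interval 0.56 to 0.84, edgeR adjusted p = 0.00040). Pdgfra (ENSMUSG00000029231; chromosome 5, 75152292 to 75198215, plus strand) stood at 108 and 111 CPM in wild type and 130.3 and 129 CPM in cKO, also without overlap, a rise of 1.18-fold (log2 fold change 0.24, SE 0.0570, 95% confidence interval 0.11 to 0.38, edgeR adjusted p = 0.0216). This call was lost in 6 of 12 alternative settings, among them those without cKO replicate 1 (0.24) and without cKO replicate 2 (0.26). The ratio of Pdgfra to Pdgfrb in TPM was 1.11 and 0.981 in wild type and 0.771 and 0.756 in cKO. Its level depends on the length used, and per kb of the independent annotation Pdgfra was below Pdgfrb in wild type as well. The 4 ligand genes Pdgfa, Pdgfb, Pdgfc and Pdgfd had log2 fold changes of −0.17 to 0.11 and edgeR adjusted p of 0.239 to 0.991, with Pdgfa at 20.2 and 25.8 against 24.8 and 24.7 CPM. The interval of Pdgfa, −0.20 to 0.41, included the change of Pdgfra, and without wild type replicate 2 Pdgfa was at 0.29. The co-receptor Nrp1 rose (347 and 255 against 418 and 426 CPM; log2 fold change 0.49, adjusted p = 0.0383), a call lost in 6 of 12 alternative settings, and it was at 0.73 without wild type replicate 1 and 0.28 without replicate 2.

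Of the 3 adhesion molecules, 1 fell and 2 did not pass, which is near the 30.5% called over all genes tested. Cd44 (ENSMUSG00000005087; chromosome 2, 102811141 to 102901665, minus strand), the receptor for hyaluronan, stood at 103 and 86.1 CPM in wild type and 74.8 and 76.1 CPM in cKO. The cKO libraries were below both wild type libraries (log2 fold change −0.32, SE 0.0925, 95% confidence interval −0.55 to −0.10, edgeR adjusted p = 0.0409), but on the TPM scale the lower wild type library, at 29.8 TPM, did not stand above the cKO libraries at 30.03 and 29.8 TPM. The call was lost in 6 of 12 alternative settings, again with either cKO library left out (−0.31 and −0.33). Alcam (ENSMUSG00000022636; chromosome 16, 52248996 to 52454074, minus strand), a binder of CD6 and of itself, stood at 149 and 172 CPM in wild type and 162 and 161 CPM in cKO, with the cKO values between those of wild type (log2 fold change 0.01, SE 0.0809, 95% confidence interval −0.18 to 0.21, edgeR adjusted p = 0.921). Mcam (ENSMUSG00000032135; chromosome 9, 44134469 to 44142727, plus strand), a marker of pericytes and endothelium, stood at 20.7 and 23.6 CPM in wild type and 23.6 and 25.9 CPM in cKO (log2 fold change 0.16, SE 0.103, 95% confidence interval −0.09 to 0.41, edgeR adjusted p = 0.278). An antisense gene over Mcam, Gm10687, had 4 to 8 counts per library. For Alcam and Mcam, the groups overlapped and the interval included changes of either sign. Without wild type replicate 1 Alcam was at −0.08 and without wild type replicate 2 at 0.12, and Mcam was at 0.26 without wild type replicate 2.

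Has1 and Has2, which make hyaluronan, moved more than its receptor Cd44, while the synthase Has3 did not pass. The hyaluronan synthases Has1 (6.57 and 8.99 CPM in wild type, 0.537 and 0.722 in cKO; log2 fold change −3.59, edgeR adjusted p = 0.000305) and Has2 (23.5 and 21.4 against 8.58 and 9.26 CPM; log2 fold change −1.33, adjusted p = 0.000343) fell. Hmmr, a hyaluronan-binding protein of the mitotic spindle, fell as well (log2 fold change −1.20, adjusted p = 0.00106). The other 4 of 7 genes did not pass, among them Has3 and the GPI-anchored hyaluronidase Hyal2 (log2 fold change 0.06, adjusted p = 0.533). Spp1 (osteopontin), which also binds Cd44, was another of these, at 5863 and 14630.1 CPM in wild type and 5694 and 5626 in cKO (log2 fold change −0.86, adjusted p = 0.131). Spp1 passed with the replicate number as a block (−0.71) and without the filter (−0.85). It was at −1.36 without wild type replicate 1 and at −0.05 without wild type replicate 2, where only the cKO libraries give a spread. The median of the 7 was −0.86, and over all genes tested 16.8% were lower.

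Nes (ENSMUSG00000004891; chromosome 3, 87971078 to 87980451, plus strand) had 260 and 235 counts in wild type and 446 and 575 in cKO, or 7.69 and 8.31 against 18.4 and 18.0 CPM. Replicates were close and the genotypes apart, with a rise of 2.28-fold (log2 fold change 1.19, SE 0.102, 95% confidence interval 0.94 to 1.43, edgeR adjusted p = 0.000498). Nestin forms filaments only with a partner, and the tested partners did not rise. Vimentin (Vim) fell from 2482 and 2682 to 1367 and 1385 CPM (log2 fold change −0.91, adjusted p = 0.00021), synemin (Synm) fell from 27.5 and 19.6 to 11.9 and 12.7 CPM (log2 fold change −0.94, adjusted p = 0.00857, not past the threshold in the 3 fits by limma), and desmin (Des) did not pass (log2 fold change −0.12). Nes is also made by endothelial cells. Of the 8 endothelial markers 4 could be tested. Kdr, Emcn and Vwf rose, with log2 fold changes of 2.14, 3.47 and 0.44, and 1 did not pass. Over all genes tested 13.7% were higher. The summed level of the 8 went from 11.03 and 9.69 CPM to 26.5 and 24.1 CPM. On the same list, Cldn5 was at 0 in each library, Pecam1 at 0.157 to 0.266 CPM and Cdh5 at 0.165 to 0.414 CPM. The part of these markers in the rise of Nes was not tested.

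A further list of 17 surface proteins used for stromal cells, of which 16 could be tested, was as divided as the 10. In it 6 rose, 6 fell and 4 did not pass, with a median of −0.17. Over all genes tested, 13.7% were higher and 16.8% lower. Cd248 (endosialin), a protein of perivascular and fibroblastic cells, rose from 37.7 and 27.9 to 132 and 132 CPM (log2 fold change 2.00, edgeR adjusted p = 0.000186). Ngfr (CD271), a marker of marrow stromal progenitors, fell from 5.35 and 7.78 to 0.619 and 0.220 CPM (log2 fold change −4.03, adjusted p = 0.00107). Ngfr is made by Schwann cells as well, and their markers Sox10 (1.15 and 1.52 against 0.0825 and 0.126 CPM) and S100b fell too. Mbp, another of their markers, did not pass (44.4 and 61.1 against 59.8 and 61.1 CPM, log2 fold change 0.20). Their part in the fall of Ngfr was not tested. Fap, a protease of activated fibroblasts, fell from 16.8 and 16.6 to 5.94 and 5.58 CPM (log2 fold change −1.54, adjusted p = 0.000215). The tetraspanin Cd81 rose (294 and 272 against 385 and 385 CPM; log2 fold change 0.45, adjusted p = 0.0036), with Cd9, Cd151, Pdpn and Anpep also higher and Itga5, Icam1, Cd200 and Cspg4 lower. Itgb1, the most abundant of the list at 903 and 878 against 958 and 969.6 CPM, did not pass (log2 fold change 0.11, adjusted p = 0.170). Lepr, a marker of adult marrow stroma, was at 0.596 to 1.24 CPM in all 4 libraries and did not pass.

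**Figure D4:**
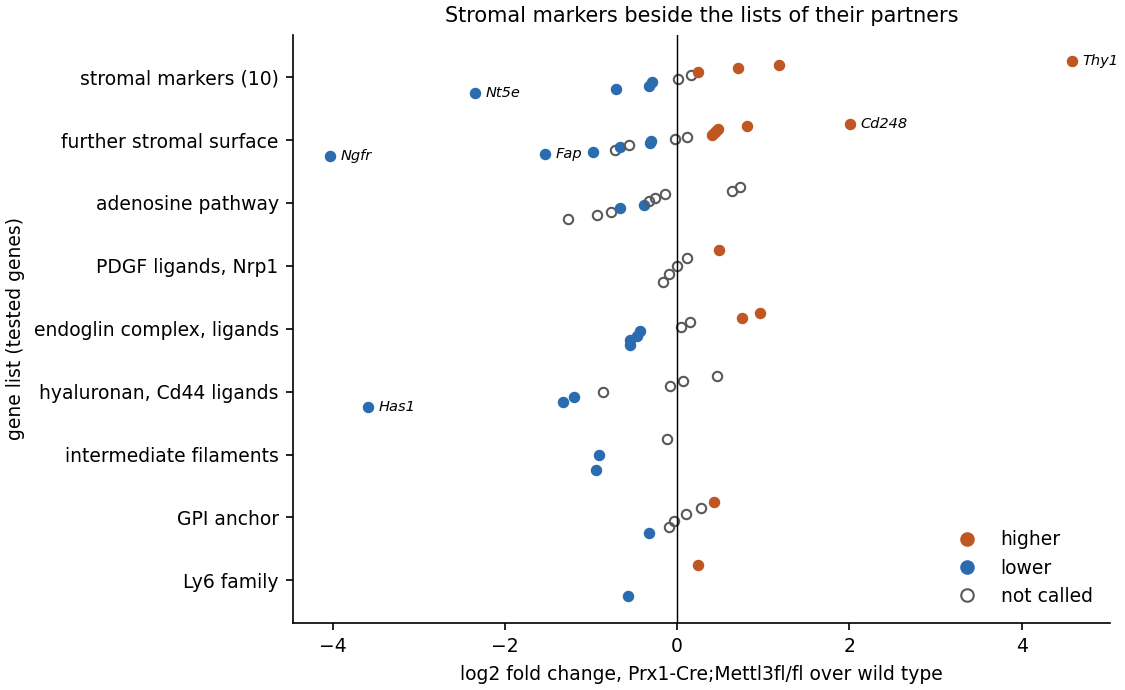
Log2 fold change in cKO over wild type of each tested gene in the 10 markers and in 8 lists of partners, 1 circle per gene (filled: adjusted p under 0.05; open: not called). Offsets within a row only separate circles. The markers span −2.35 to 4.59, and the further surface list spans −4.03 to 2.00.

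Markers of other cells were measured in the same libraries, where 13.7% of all genes tested were higher and 16.8% lower. The 12 macrophage and haematopoietic markers were abundant and summed to 20477 and 25103 CPM in wild type and 26631 and 26816 CPM in cKO, with 5 higher (Ptprc, C1qa, C1qb, C1qc and Fcer1g, log2 fold changes 0.29 to 0.50) and 7 not past the test. Macrophages also make Cd44, and their part in its level was not tested. The 6 mesenchymal markers summed to 7528 and 7536 CPM in wild type and 5049 and 5132 CPM in cKO, with Prrx1, Twist1 and Col3a1 higher and Col1a1, Col1a2 and Vim lower. Of 8 tested mural markers, genes of pericytes and smooth muscle that share their cells with Pdgfrb and Mcam, 1 rose (Notch3, log2 fold change 1.79) and 5 fell (Rgs5, Acta2, Tagln, Cnn1 and Abcc9). Their sum went from 732 and 822 to 620.2 and 633 CPM. Chondrocyte markers fell most, from 3541 and 3578 CPM to 84.5 and 83.9 CPM summed, with 5 of 6 lower. Osteoblast markers were lower in 6 of 6 (319 and 402 against 175 and 178 CPM) and adipocyte markers higher in 6 of 6 (612 and 629 against 1091 and 1114 CPM). Of the neutrophil markers 2 could be tested and 1 fell (S100a8), while no B cell or erythroid marker was high enough to test. Whether any of these cells contributed to the differences of the 10 markers was not tested.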

How the data were processed

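RNA-seq libraries were made by the authors from poly(A) RNA with a NEBNext Ultra kit, and MeRIP-Seq libraries from fragmented mRNA. The submitters' processing notes name HISAT2 2.0.4, TopHat, MACS2, mm10 and mm9. The counting method and its use of strand are not given in the sources used here. The deposited table gives unnormalized estimated counts per gene, and a length-scaled value headed FPKM that sums to 1000000 in each library and is called TPM here. For m6A, the list deposited by the authors gives for each peak a pileup signal, a fold enrichment as a ratio and, in a column whose header is lost but whose place is that of MACS2, −log10 of the q-value, with positions matching mm9. Whether samples were pooled before calling is not given. All columns of values per library were used.

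The 89 entries without a name, with 0.110% to 0.125% of a library's counts, were left out. Estimated counts were rounded, filtered with filterByExpr, scaled by TMM and tested two-sided with edgeR 4.0.16 (glmQLFit, glmQLFTest, no block) in R 4.3.3, using the 2 wild type and 2 cKO libraries. P-values were adjusted by Benjamini-Hochberg over 15327 genes, and calls were made at 0.05. CPM use TMM-scaled library sizes, and a count of 0 allows up to 3 counts, a limit for counting error only. Peaks were assigned to genes by their summit on mm9 with GENCODE vM1, and GGAC was counted in the mRNA sense, in the whole genomic span of a peak and in the spliced transcript of a marker. Library sizes were 23948200 to 34069223 counts. Alternatives were DESeq2 1.42.0, no filter, median-of-ratios scaling in edgeR, limma 3.58.1 on log2(TPM + 0.1) or log2(TPM + 1), the replicate number as a block, the cKO libraries summed, and each library left out. Scripts were tested on simulated data.

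The text names the 10 markers, Mettl3 and, from each of 8 partner lists, the 2 genes with the highest mean CPM and those called with a log2 fold change of at least 1. Other listed genes are named only to spell out a count, a choice made with their values in view. There were 12 lists of cell type markers, of which the Schwann and neural list is given without its count and sum, since some of its genes are not reported here. The 10 markers and all lists were chosen with earlier results of these data known.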

Additional observations from a re-analysis of the deposited data

How the results depend on the processing

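Thy1, Nt5e, Nes, Eng and Pdgfrb kept their direction and call under all 12 alternative settings. Of the 120 values of the 10 markers, 99 kept both and 1 reversed. Thy1 ranged from 4.19 to 5.24 (log2 fold change) with a library left out, and Nt5e was −1.46 on log2(TPM + 1) against −2.35 by edgeR, since a pseudocount shrinks the change of low genes. The small changes were lost with limma on log2(TPM + 0.1), on log2(TPM + 1) and on log2(TPM + 0.1) without a filter. Ly6a was then −0.20, −0.19 and −0.20, Pdgfra 0.35, 0.34 and 0.35, and Cd44 −0.16, −0.15 and −0.16. With the cKO libraries summed to 1 sample, which leaves fewer samples, they were −0.29, 0.25 and −0.32, also not past the threshold. Leaving out 1 library gave −0.38 to −0.21 for Ly6a, 0.23 to 0.26 for Pdgfra and −0.45 to −0.18 for Cd44, and all 3 calls were lost without either cKO library. Alcam ranged from −0.08 (reversed, without wild type replicate 1) to 0.12, Mcam from 0.08 to 0.26, Mettl3 from −0.08 to 0.02 (reversed without wild type replicate 1, at 0.00, and without cKO replicate 2) and Pdgfa from −0.05 (reversed, without wild type replicate 1) to 0.29. In a fit without 1 wild type library, the spread within a genotype comes only from the 2 close cKO libraries. Small differences can pass the threshold there, as those of Alcam and Mcam did. Of the named partners, Cd81, Slc29a1, Nrp1 and Ly6e also lost their calls without either cKO library or with these summed, Pgap1 without cKO replicate 1 or with them summed, and Slc29a1, Nrp1, Synm, Pgap1 and Ly6c1 in the 3 limma fits. With 1 library left out, Itgb1 ranged from 0.09 to 0.14, Pigk from −0.14 to −0.04 and Ngfr from −4.87 to −3.39. Markers lower in cKO numbered 2 in the 3 limma fits and with the cKO libraries summed, against 4, and 2 to 5 with a library left out, while those higher numbered 3 to 6. Of the 57 other listed genes tested, 11 were higher and 19 lower. The lower ones numbered 8 in each limma fit, 11 with the cKO libraries summed, and 11 to 26 with a library left out, and the higher ones 5 with the cKO libraries summed and 5 to 19 with a library left out. Over all genes, 2100 were higher and 2577 lower. These became 1372 and 1162, 1338 and 1134, and 895 and 865 in the 3 limma fits, 793 and 1219 with the cKO libraries summed, and 724 to 4255 and 1143 to 4495 with a library left out. The labels number replicates 1 and 2 in both genotypes without saying that a number pairs them, and deviations of same-numbered libraries correlated at 0.0320 over 15327 genes. Blocking on replicate number changed no marker's call (Thy1 4.63, Nt5e −2.35, Ly6a −0.29), brought Entpd1 (0.89) and Spp1 (−0.71) past the threshold, and gave 2253 higher and 2628 lower genes. Other than where a construction is named, the cause was not tested. The markers had 54 to 6841 counts in a library, and precision was limited by having 2 libraries per genotype.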

Other observations

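Of the 10 markers, 3 lie on chromosome 9, and the end of Thy1 is 86 kb from the start of Mcam. Thy1 rose while Mcam did not pass the test. Of 7 genes tested within 200 kb of Thy1, 1 was higher and 2 were lower, with log2 fold changes from −2.29 to 0.49 and a median of −0.02. Around Nt5e, 6 genes were tested, and their log2 fold changes ran from −0.12 to 0.54. Around Nes, 14 were tested, of which 2 were higher and 2 were lower. Over all genes tested, 30.5% were called.

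Relative to all genes tested, Thy1 was at rank 10815 and 12102 by TPM in the wild type libraries and at rank 2166 and 2326 in the cKO libraries. Nt5e was at rank 10342 and 10324 in wild type and at rank 12805 and 13193 in cKO. The ratio of Thy1 to Ly6a in TPM was 0.00759 and 0.00335 in wild type and 0.164 and 0.161 in cKO, while that of Alcam to Mcam was 5.81 and 5.52 in wild type and 5.89 and 5.41 in cKO.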
